A study of Mus musculus with 87 samples.

Results

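Endothelial and angiogenic genes were followed in regenerating mouse liver: Vegfa, Angpt2, Wnt2, Rspo3, Kdr, Flt1, Tek, Stab2, Lyve1 and Id1. They were taken by gene symbol, 10 rows of a table of 37991 genes, and 9 of the 10 passed the detection limit and were tested among 15396 genes. Angpt2 did not pass. Poly(A) RNA came from individual livers of male C57BL/6 mice aged 12 to 14 weeks, entrained to 12 h light and 12 h dark with food in the dark only. Surgery under isoflurane at ZT2 (Zeitgeber Time, 2 h after lights on) was 2/3 partial hepatectomy (PH, groups named X) or a sham operation that left the liver whole (groups named S). Unoperated mice were C0 at ZT2 (9 livers), C4 at ZT6 (3 livers) and C4W, kept for 4 weeks (2 livers). Sham livers were taken at 1 h (6), 4 h (5), 10 h (3), 20 h (3) and 48 h (3). PH livers were taken at 1 h (6), 4 h (3), 10 h (6), 20 h (6), 28 h (3), 36 h (6), 44 h (3), 48 h (5), 72 h (3), 1 week (3) and 4 weeks (2).

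The liver sinusoids are lined by a fenestrated endothelium that clears waste from the blood and sends growth signals to hepatocytes. Vegfa encodes the main angiogenic growth factor, and Kdr and Flt1 encode receptors for it, Kdr as the main signalling receptor and Flt1 largely as a trap that limits the signal. Angpt2 encodes a ligand that can block the receptor Tek. Wnt2 is a Wnt ligand and Rspo3 an amplifier of Wnt signals, both made by liver endothelial cells. Stab2 and Lyve1 are receptors that bind hyaluronan, and Id1 encodes an inhibitor of basic helix-loop-helix factors that is induced by bone morphogenetic protein (BMP) signals in several cell types. Expression in whole liver does not separate cell types, so fewer endothelial cells and less RNA per cell cannot be told apart.

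Levels are given as RPKM, read counts divided by transcript length in kilobases and by the mapped reads of the library, which allows comparison between genes per length. Over the 80 libraries the median level was highest for Vegfa, 16.9 RPKM, followed by Id1 with 4.28 RPKM. Kdr (2.05 RPKM), Stab2 (1.98) and Rspo3 (1.96) were close to each other. Lyve1 (1.29 RPKM), Tek (1.22), Wnt2 (0.723) and Flt1 (0.550) were lower. Angpt2 was under the detection limit, a log2 RPKM of -1.5, in every library, with a median of 0.0735 RPKM. By the estimate from transcript length and depth, the median library held 1864 reads of Vegfa, 43.9 of Wnt2 and 6.99 of Angpt2, so counting error weighs most on the last. Groups were compared with limma on log2(RPKM + 0.25). A gene was called when its adjusted p was under 0.05 and its log2 fold change was beyond 0.5 either way. On this scale the change of genes below about 1 RPKM is understated.

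Id1 varied most between groups. The highest and the lowest group mean of Id1 lay 3.55 apart on the log2(RPKM + 0.25) scale. The span was 1.94 for Kdr, 1.78 for Vegfa, 1.73 for Lyve1, 1.40 for Tek, 1.31 for Wnt2 and 1.19 for Rspo3. Stab2 and Flt1 had the smallest spans of the tested members, 0.75 and 0.60. In the order of the 19 group means, neighbours mostly lay closer than the larger SD of the pair. Of 18 neighbouring pairs, 3 were further apart for Vegfa, Kdr and Tek, 1 for Angpt2, Wnt2, Rspo3, Flt1 and Id1, and 0 for Stab2 and Lyve1.

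**Figure D1:**
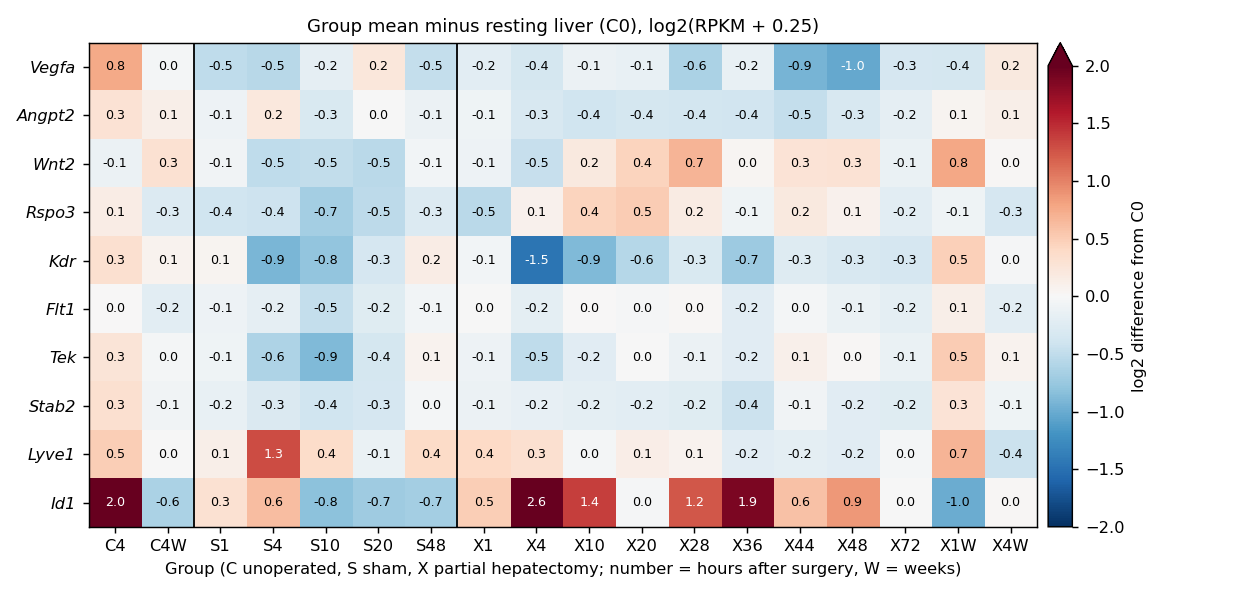
Difference of each group mean from resting liver (C0) on the log2(RPKM + 0.25) scale, for the 10 genes (rows) and the other 18 groups (columns). Id1 is highest in C4 and at 4 h, 10 h and 36 h after PH, Kdr is lowest at 4 h after PH, and Vegfa is lowest at 44 h and 48 h after PH.

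The receptor genes Kdr, Tek and Flt1 are shown with the 250 bases before their RefSeq start, because Kdr and Tek were lower together at 4 h in both surgeries while Flt1 was not called. The sequences are from RefSeq, build GRCm38.p6, in the direction of the gene, at chr5:75978456-75978705 on the minus strand for Kdr, chr4:94739039-94739288 on the plus strand for Tek and chr5:147726012-147726261 on the minus strand for Flt1. Capitals mark matches to the motifs searched on both strands.
Kdr: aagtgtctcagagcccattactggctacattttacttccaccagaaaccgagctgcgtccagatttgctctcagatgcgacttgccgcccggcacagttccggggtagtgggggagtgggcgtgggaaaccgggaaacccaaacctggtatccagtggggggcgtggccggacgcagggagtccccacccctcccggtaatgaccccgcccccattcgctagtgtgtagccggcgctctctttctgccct
Tek: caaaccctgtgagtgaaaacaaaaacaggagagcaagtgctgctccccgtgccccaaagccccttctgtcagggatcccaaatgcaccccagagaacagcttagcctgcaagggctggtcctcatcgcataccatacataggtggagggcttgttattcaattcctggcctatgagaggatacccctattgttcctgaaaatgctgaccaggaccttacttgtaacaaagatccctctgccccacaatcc
Flt1: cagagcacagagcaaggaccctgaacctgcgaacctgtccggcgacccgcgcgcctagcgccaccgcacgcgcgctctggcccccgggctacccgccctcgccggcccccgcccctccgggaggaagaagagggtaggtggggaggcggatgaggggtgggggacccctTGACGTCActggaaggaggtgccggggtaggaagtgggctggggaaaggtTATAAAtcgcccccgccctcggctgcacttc
Flt1 held TGACGTCA, the cyclic AMP response element, from base -81 to its start and TATAAA, the TATA box, from base -31. TGACGTCA occurred in 1.79% and TATAAA in 13.6% of 32851 promoters of 300 bases. Kdr and Tek held neither. None of the 3 held the hypoxia response core ACGTG (19.6% of promoters), the GC-rich GGCGCC (11.9%) or the ETS-type CAGGAAG (13.3%), and no motif contains another. GC content was 61.6% for Kdr, 51.2% for Tek and 70.4% for Flt1. RefSeq promoters were matched for 6 of the 10 genes, which also took in Vegfa, Wnt2 and Stab2, and not for Angpt2, Rspo3, Lyve1 and Id1.

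Libraries held an estimated 12.2 to 48.8 M reads (median 26.7 M). In replicate 2 of PH at 28 h 37.0% of low values lay at whole estimated reads, the lowest share, against a median of 76.1%. Its depth estimate is thus less certain, and the reason was not tested. Endothelial content was followed with the pan-endothelial markers Pecam1, Cdh5, Egfl7, Esam, Robo4, Tie1, Eng, Emcn, Sox18 and Erg, whose summed level was 16.2 to 35.6 RPKM in C0. No marker of that list was at 0 in every liver of C0. One library stood apart in endothelial content, replicate 5 of PH at 36 h. It had the lowest mean pan-endothelial level of the 80 libraries (summed level 8.58 RPKM), and Kdr, Flt1, Tek, Stab2 and Lyve1 each had their lowest value there. Its Kupffer list summed to 7.36 RPKM and its stellate list to 41.5, both lowest among the 6 livers of 36 h. By the study's methods, mice were operated on and killed in lots of 3, and replicates 1 to 3, 4 to 6 and 7 to 9 differed in several members. The labels do not say what the numbers share. By the study's supplement the libraries came from 3 separate periods, with 3 C0 livers from each. Several groups came from a single period, among them C4, sham livers at 10 h and 20 h and PH livers at 48 h. Equal numbers in different groups thus need not share a period. Some results are also given within these sets of numbers, and results given only over all libraries may still differ between them. Surgery and period cannot be fully told apart where the compared groups came from different periods.

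Comparing PH with sham livers of the same hour asks what the loss of tissue adds to the operation. At 1 h 0 of 9 members were called by limma, where 0.65% of all genes were, and 0 had an unadjusted p under 0.05. The count was 1 of 9 at 4 h (8.64% of all genes), 3 at 10 h (7.02%), 2 at 20 h (7.11%) and 1 at 48 h (27.2%). All 7 calls were higher after PH, on Id1, Rspo3, Wnt2 and Tek, where the share of all genes called higher was 0.624%, 3.16%, 3.4%, 4.49% and 24.5% from the first time to the last. PH and sham livers did not overlap for 0, 2, 5, 3 and 5 of 9 members, beside 0.786%, 21.6%, 17.6%, 16.8% and 45.9% of all genes. The members' share of calls was close to that of all genes at 1 h and 4 h. It was above that share at 10 and 20 h and below it at 48 h, each on at most 3 of the 9 members. Their share without overlap was close to that of all genes at 4 h and 48 h and above it at 10 and 20 h. With all libraries scaled to one median there were 9 higher and 4 lower calls, the lower ones all at 48 h on Vegfa, Kdr, Stab2 and Lyve1 (-1.0 for Lyve1, adjusted p = 0.0292). Relative to the mean log2 level of the pan-endothelial markers in each library, the pan-endothelial reference, there were 7 higher and 0 lower. At 48 h the median log2 fold change over all genes was 0.27, against -0.071 over the members, and the other medians of all genes lay within 0.1 of 0.

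**Figure D2:**
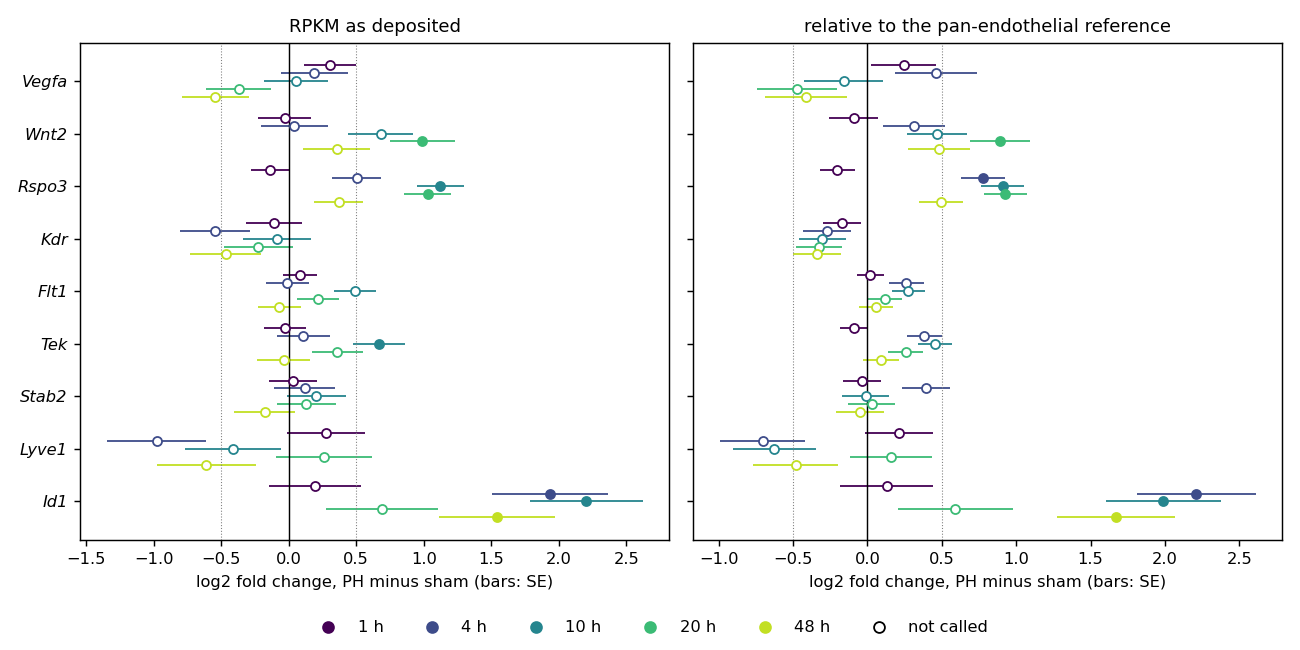
Log2 fold change between PH and sham at the 5 shared times (1 to 48 h) for the 9 tested genes, with bars for the SE and filled points for calls, from RPKM as deposited (left) and after subtracting the pan-endothelial reference of each library (right). Id1 lies at 1.94, 2.20 and 1.54 at 4, 10 and 48 h, and Rspo3 at 1.12 and 1.03 at 10 and 20 h, all called on both sides.

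Vegfa (mm9 chr17:46153942-46169326, minus strand), the ligand, had no call between PH and sham at any of the 5 times over all libraries, but its level differed between sets of replicate numbers. In C0 it was 11.1, 14.2 and 11.6 RPKM in replicates 1 to 3, 21.2, 21.2 and 19.3 in replicates 4 to 6, and 27.7, 30.1 and 28.8 in replicates 7 to 9. Sham livers at 1 h stood at 8.67, 10.3 and 8.86 RPKM in replicates 1 to 3 and at 22.9, 17.2 and 19.3 in replicates 4 to 6. PH livers at 1 h held 15.6, 17.5 and 17.7 RPKM in the first set and 18.2, 15.2 and 16.8 in the second. The sets did not overlap in C0 or in sham livers at 1 h, and they did overlap after PH. The difference between PH and sham at 1 h was 0.31 (log2 scale, SE 0.19, adjusted p = 0.683) over all libraries. It was 0.85 (SE 0.12, adjusted p = 1.89e-06) within replicates 1 to 3 and -0.24 (SE 0.12, adjusted p = 0.290) within replicates 4 to 6.

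At 4 h sham livers held 8.95, 8.54 and 10.5 RPKM of Vegfa in replicates 1 to 3 and 19.2 and 25.7 in replicates 4 and 5. PH livers, replicates 4 to 6, stood at 14.2, 14.7 and 16.4 RPKM, between both sham sets. The difference was 0.19 (SE 0.25, adjusted p = 0.720) over all 5 sham livers and -0.55 (SE 0.13, adjusted p = 0.00311) against sham replicates 4 and 5. Its sign changed with the sham livers used.

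**Figure D3:**
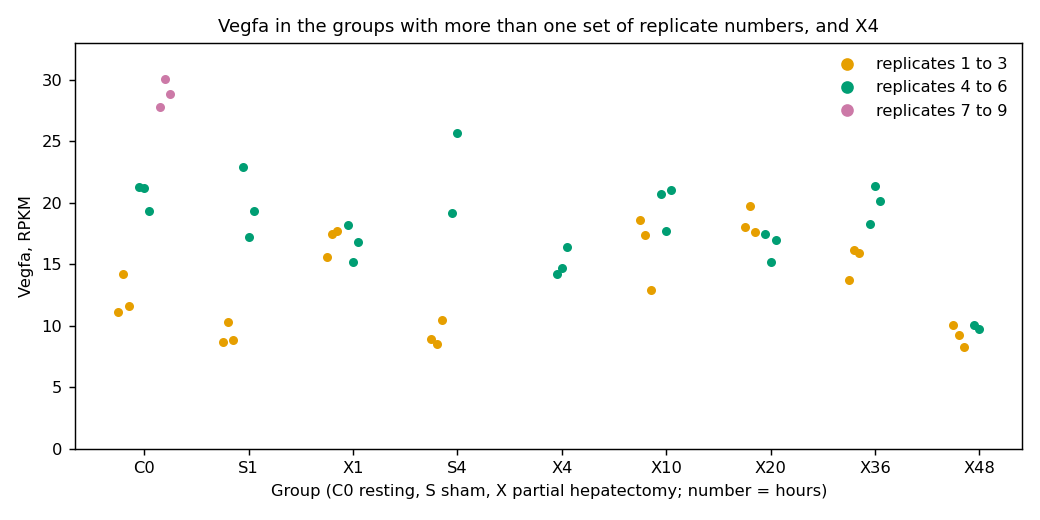
Vegfa in RPKM in each library of C0 and of operated groups, coloured by set of replicate numbers. C0 falls into sets at 11.1 to 14.2, 19.3 to 21.2 and 27.7 to 30.1 RPKM, and PH livers at 48 h lie at 8.29 to 10.0 RPKM whatever their number.

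At 44 h and 48 h after PH Vegfa was low in every liver. It stood at 9.37, 10.8 and 9.94 RPKM at 44 h and at 10.0, 9.22, 8.29, 10.0 and 9.76 RPKM at 48 h. All 8 livers lay below all 9 C0 livers, at 44 h (log2 -0.93, SE 0.22, adjusted p = 0.000296) and at 48 h (log2 -1.02, SE 0.19, adjusted p = 3.48e-06). The size depended on the controls: at 48 h the difference was -0.37 against C0 replicates 1 to 3, -1.10 against 4 to 6 and -1.59 against 7 to 9. Between livers of equal numbers it was -0.41 in replicates 1 to 3, under the size limit, and -1.04 in replicates 4 and above. By the study's supplement all PH livers of 44 h and 48 h came from a single period and C0 from 3. Equal numbers above 3 thus need not share a period here. Sham livers at 48 h held 13.6, 13.4 and 14.7 RPKM, above all 5 PH livers. That difference was not called over all libraries (log2 -0.54, SE 0.25, adjusted p = 0.0657). It was -0.59 (SE 0.12, adjusted p = 5.61e-05) within replicates 1 to 3, and -1.02 (adjusted p = 0.000322) after scaling all libraries to one median. At 72 h Vegfa averaged 15.5 ± 3.12 RPKM (SD, n = 3) and at 1 week 15.2 ± 0.783 RPKM (SD, n = 3). Every liver of both times lay within the range of C0 (11.1 to 30.1) and above the 8 livers of 44 h and 48 h.

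In unoperated liver Vegfa was higher in C4, at ZT6, than in C0, at ZT2, over all libraries. By the study's supplement C4 came from a single period and C0 from 3, so clock hour and period cannot be fully told apart. No operated liver came from the period of C4, so surgery and period cannot be told apart in comparisons of operated livers with C4. C4 stood at 29.5, 36.8 and 33.3 RPKM, above C0 (log2 0.76, SE 0.22, adjusted p = 0.0151). The call was lost without C4 replicate 2 (0.68) or 3 (0.76, adjusted p = 0.0536), and the difference was 1.41 against C0 replicates 1 to 3 and 0.19 against 7 to 9. Against C4, Vegfa was lower at 4 h after PH (log2 -1.12, SE 0.28, adjusted p = 0.000416) and after sham (log2 -1.31, SE 0.25, adjusted p = 7.18e-06). After subtraction of the pan-endothelial reference these were -0.097 (adjusted p = 0.790) and -0.56 (adjusted p = 0.0731), and C4 against C0 was 0.36, none of them called. Which cells held the Vegfa RNA was not measured, so the endothelial scale need not follow its source. At 28 h after PH, also ZT6, Vegfa stood at 11.4, 12.9 and 12.9 RPKM and was lower again (log2 -1.40, SE 0.28, adjusted p = 3.23e-05). No liver of these 3 groups reached the lowest C4 value. Lower values than C0 were also called over all libraries at 28 h after PH (-0.64) and at 1 h and 4 h after sham (-0.51 and -0.55). Relative to the reference these were -0.39, -0.22 and -0.20, with no call. Against C0 replicates 1 to 3 they were 0.016, 0.14 and 0.11, with no call. The call at 28 h was also lost without PH replicate 1 (-0.58). The call at 1 h was lost without C0 replicate 4, 5, 7, 8 or 9 or sham replicate 1, 2 or 3 (-0.50 to -0.39), and that at 4 h without C0 replicate 7, 8 or 9 or sham replicate 1, 2 or 3 (-0.48 to -0.39).

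Angpt2 (mm9 chr8:18690263-18741562, minus strand), the Tek ligand, ran from 0 in 2 libraries, PH at 10 h replicate 1 and at 44 h replicate 3, to 0.310 RPKM. At 4 h it stood at 0.0179, 0.0573 and 0.0539 RPKM after PH, at 0.309, 0.0613, 0.310, 0.0882 and 0.169 after sham and at 0.162, 0.292 and 0.148 in C4. PH livers were below all sham and all C4 livers, of which C4, by the study's supplement, came from another period. In the fit without the detection filter, PH differed from sham (log2 -0.54, SE 0.13, adjusted p = 0.00365) and from C4 (log2 -0.61, SE 0.14, adjusted p = 0.000488). Relative to the pan-endothelial reference the mean at 4 h after PH (-2.20) was still below sham (-1.94) but above C4 (-2.62), so the direction against C4 turned. From 10 h to 48 h after PH no liver exceeded 0.102 RPKM. At 1 week the values were 0.182, 0.0741 and 0.145 RPKM, beside 0.0528 to 0.209 in C0.

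Wnt2 (mm9 chr6:17938940-17980585, minus strand), the endothelial Wnt ligand, was higher after PH than sham at 20 h. PH livers ranged from 0.717 to 1.29 RPKM (median 1.08) and sham livers stood at 0.242, 0.385 and 0.665. The groups did not overlap, and the difference was 1.99-fold (log2 0.99, SE 0.24, adjusted p = 0.00348). Without sham replicate 1 it was 0.78 with an adjusted p of 0.0792. At 10 h all 6 PH livers (0.581 to 1.01 RPKM, median 0.934) were above the sham livers (0.542, 0.334 and 0.440), but the difference was not called (log2 0.68, SE 0.24, adjusted p = 0.0516). Between livers numbered 1 to 3 it was 0.82 (adjusted p = 0.0148). By the study's supplement all sham livers of 10 h and 20 h came from a single period, which supplied only some of the PH livers. Equal numbers thus need not share a period here, and surgery and period cannot be fully told apart at either hour.

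C0 livers ranged from 0.283 to 1.30 RPKM of Wnt2 (median 0.641). PH livers were higher at 28 h, with 1.36, 1.68 and 0.904 RPKM (log2 0.68, SE 0.23, adjusted p = 0.0129), though both groups overlapped. That call was lost without PH replicate 1 (0.64) or 2 (0.51). At 1 week they held 1.61, 1.18 and 1.40 RPKM, again higher than C0 (log2 0.77, SE 0.23, adjusted p = 0.00591). They were also higher than at 72 h, when Wnt2 stood at 0.468, 0.794 and 0.641 RPKM (log2 0.91, SE 0.28, adjusted p = 0.0119), a call lost without 72 h replicate 1 (0.76) or 1 week replicate 1 (0.81). The step from 72 h, taken relative to the pan-endothelial reference, was 0.46 (adjusted p = 0.0879), not called, and the difference from C0 was 0.63, still called. Sham livers at 4 h, with 0.362, 0.434, 0.409, 0.491 and 0.439 RPKM, were lower than C0 (log2 -0.51, SE 0.19, adjusted p = 0.0183). This was -0.69 within replicates 1 to 3 and 0.028 within replicates 4 to 6, and the call was lost without C0 replicate 1, 2, 7 or 8 or sham replicate 1 or 3 (-0.50 to -0.42), with all libraries at one median (-0.43) and relative to the reference (-0.16).

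Rspo3 (mm9 chr10:29172915-29255673, minus strand), the amplifier of Wnt signals, was higher after PH than sham at 10 h and 20 h. At 10 h PH livers held 2.44 to 3.69 RPKM (median 2.97) and sham livers 1.28, 1.07 and 1.34. Every PH liver was above every sham liver, by 2.18-fold on average (log2 1.12, SE 0.18, adjusted p = 6.99e-06). At 20 h the PH range was 2.33 to 3.81 RPKM (median 3.18) and sham livers stood at 0.941, 2.00 and 1.44, again without overlap (2.04-fold, log2 1.03, SE 0.18, adjusted p = 5.83e-05). C0 livers held 1.45 to 2.78 RPKM (median 2.22). By the study's supplement the sham livers of 10 h and 20 h came from a single period. That period supplied only some of the PH livers of these hours and of C0, so surgery and period cannot be fully told apart. Sham livers were lower than C0 at 10 h (log2 -0.69, SE 0.17, adjusted p = 0.00049) and at 20 h (log2 -0.52, SE 0.17, adjusted p = 0.0161), the second lost without C0 replicate 1, 8 or 9 or sham replicate 1 or 3 (-0.54 to -0.28). Sham at 10 h relative to the pan-endothelial reference was 0.060 (adjusted p = 0.681), with the direction turned, and at 20 h -0.14 (adjusted p = 0.377), neither called. PH livers were higher than C0 at 20 h (log2 0.51, SE 0.13, adjusted p = 0.000878), which came under the limit of 0.5 without C0 replicate 4, 5 or 6 or PH replicate 1 or 2 (0.45 to 0.50), and was 0.29 with all libraries at one median.

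At 4 h Rspo3 stood at 2.34, 2.33 and 2.14 RPKM after PH and at 1.87, 1.60, 1.56, 1.43 and 1.24 after sham. The groups did not overlap, but the difference was not called (log2 0.50, SE 0.18, adjusted p = 0.0527). Against sham replicates 4 and 5 it was 0.67 (adjusted p = 0.0274), and relative to the pan-endothelial list 0.78 (adjusted p = 0.000219). At 1 h PH livers (1.11 to 1.63 RPKM) were lower than C0 (log2 -0.53, SE 0.13, adjusted p = 0.000947), a call lost without C0 replicate 9 (-0.49) or PH replicate 4 (-0.48), and under the size limit at one median (-0.46) and relative to the reference (-0.31). At 48 h PH livers held 2.29, 1.91, 2.77, 1.84 and 2.73 RPKM and sham livers 1.78, 1.74 and 1.61. They did not overlap, and the difference was not called (log2 0.37, SE 0.18, adjusted p = 0.0939); it was -0.070 with all libraries at one median.

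**Figure D4:**
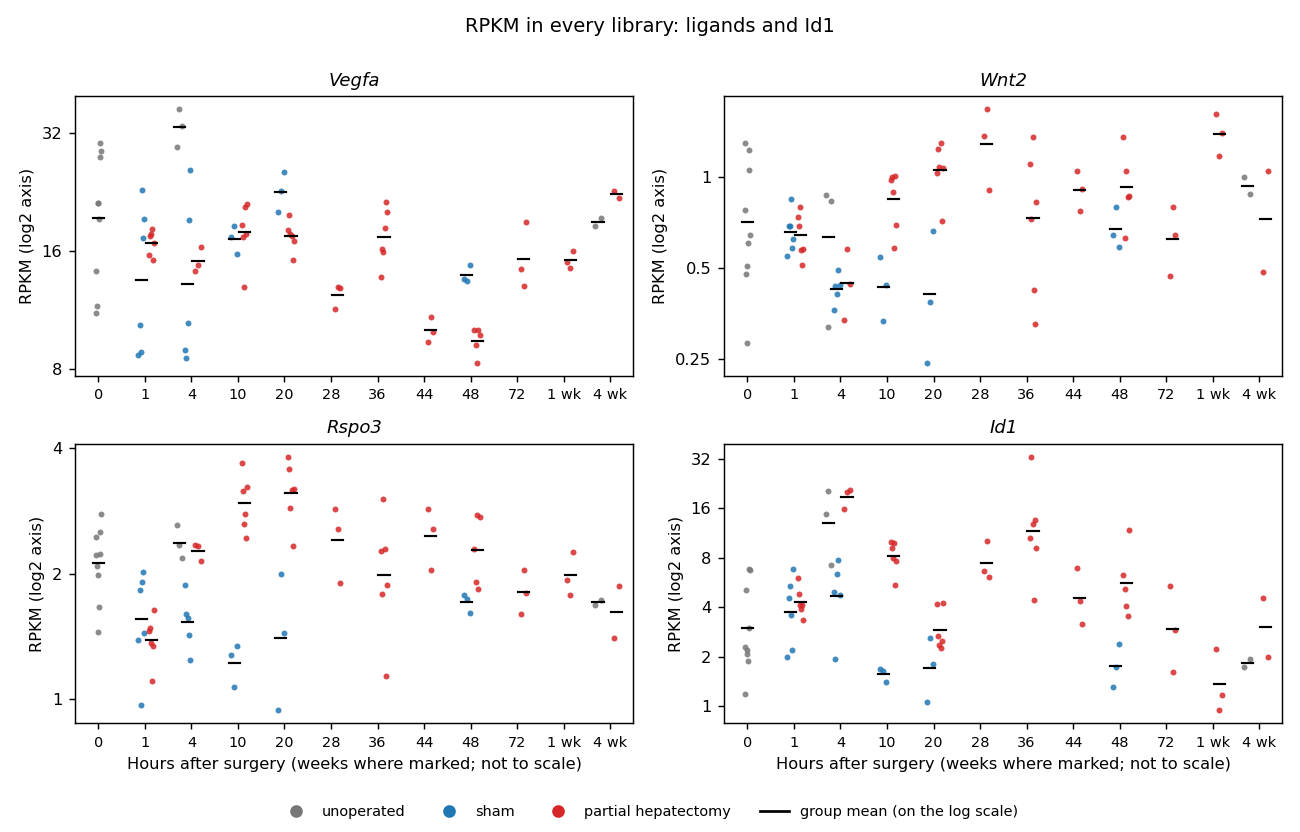
RPKM of Vegfa, Wnt2, Rspo3 and Id1 in every library (points) by time after surgery, on log2 axes, with bars for the group mean. Rspo3 in PH livers lies between 2.44 and 3.69 RPKM at 10 h, above the sham values of 1.07 to 1.34, and Vegfa in PH livers lies between 8.29 and 10.8 RPKM at 44 h and 48 h.

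Kdr (mm9 chr5:76328852-76374483, minus strand), the main signalling receptor for Vegfa, was low at 4 h in both surgeries. It stood at 0.753, 0.770 and 0.755 RPKM after PH and at 1.5, 1.37, 1.66, 0.684 and 1.12 after sham, beside 3.44, 3.21 and 3.05 in C4. Neither surgery overlapped with C4, whose livers, by the study's supplement, came from another period than the operated ones. The difference was 3.45-fold after PH (log2 -1.78, SE 0.29, adjusted p = 4.79e-07) and 2.36-fold after sham (log2 -1.24, SE 0.26, adjusted p = 4.88e-05). Between PH and sham there was no call (log2 -0.55, SE 0.26, adjusted p = 0.166), and against sham replicates 4 and 5 the difference was -0.16. Against C4, 45.6% of all genes were called either way after PH and 43.3% after sham. The pan-endothelial list was lower too, with 7 of its 10 genes called lower than C4 after PH (median -0.99) and 7 of 10 after sham (median -0.68). Relative to that list the Kdr difference was -0.76 after PH (adjusted p = 0.000195), still a call, and -0.49 after sham (adjusted p = 0.00711), under the size limit.

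At 10 h sham livers held 1.26, 1.38 and 1.43 RPKM of Kdr and PH livers 0.829 to 1.82 (median 1.30). Both were lower than C0 (1.60 to 3.57 RPKM), sham (log2 -0.79, SE 0.24, adjusted p = 0.00465) and PH (log2 -0.88, SE 0.19, adjusted p = 4.74e-05). The pan-endothelial reference averaged 0.30 after sham and 0.52 after PH against 1.05 in C0 on the log2(RPKM + 0.25) scale. Relative to it Kdr was -0.047 (adjusted p = 0.767) after sham and -0.35 (adjusted p = 0.00553) after PH, under the size limit, so neither was called. At 20 h PH livers (1.17 to 1.93 RPKM, median 1.70) were lower than C0 (log2 -0.57, SE 0.19, adjusted p = 0.00976), which was -0.48 without PH replicate 5 and -0.29 relative to the reference. Sham livers at 20 h stood at 1.63, 2.22 and 2.02 RPKM and were not called. By 48 h sham livers held 2.99, 2.88 and 2.66 RPKM, above all 5 PH livers (2.16, 2.01, 2.21, 1.56 and 2.06). The difference was not called (log2 -0.47, SE 0.26, adjusted p = 0.143), and it was -0.90 (adjusted p = 0.00368) with all libraries at one median.

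At 36 h Kdr split by replicate number, with 2.39, 2.48 and 2.32 RPKM in PH replicates 1 to 3 and 1.07, 0.340 and 1.33 in replicates 4 to 6. The group was lower than C0 (log2 -0.72, SE 0.19, adjusted p = 0.000727), and -0.42 without replicate 5, the library of low endothelial markers. Set against the pan-endothelial reference it was -0.26, not called. Within matching numbers it was -0.15 in replicates 1 to 3 and -1.05 in replicates 4 to 6. At 1 week Kdr stood at 3.63, 3.15 and 4.13 RPKM, above every PH liver from 4 h to 72 h. It was higher than at 72 h (1.88, 1.95 and 2.04 RPKM, log2 0.81, SE 0.29, adjusted p = 0.0354). That call was lost without any of the 3 livers of 72 h or replicate 1 or 3 of 1 week (0.72 to 0.84, adjusted p 0.0638 to 0.117), and relative to the reference (0.36, adjusted p = 0.0818).

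Flt1 (mm9 chr5:148373180-148537587, minus strand), the decoy receptor for Vegfa, had no call between 2 groups in RPKM as deposited. C0 ranged from 0.420 to 0.793 RPKM (median 0.580). At 4 h it was 0.465, 0.554 and 0.440 RPKM after PH, 0.365 to 0.639 after sham and 0.563, 0.577 and 0.642 in C4, with no call between them. Relative to the pan-endothelial reference it was higher than C4 in both surgeries, by 0.82 after PH and 0.56 after sham. The C4 livers came from another period than the operated ones, by the study's supplement. At 10 h all 6 PH livers (0.516 to 0.710 RPKM) were above the sham livers (0.311, 0.317 and 0.443). The difference was just under the size limit (log2 0.49, SE 0.15, adjusted p = 0.0260). Between livers numbered 1 to 3, which need not share a period, it was 0.59 (adjusted p = 0.00277).

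Tek (mm9 chr4:94405980-94541667, plus strand), the angiopoietin receptor, was higher after PH than sham at 10 h. Sham livers stood at 0.551, 0.618 and 0.594 RPKM, the lowest group mean of Tek, and PH livers at 0.753 to 1.39 (median 1.08). There was no overlap, and the difference was 1.59-fold (log2 0.67, SE 0.19, adjusted p = 0.0129). The adjusted p was 0.0608 without sham replicate 1 and 0.0522 without sham replicate 3, at 0.64 and 0.67. Relative to the pan-endothelial list it was 0.45 (adjusted p = 0.00768), under the size limit. All sham livers of 10 h came, by the study's supplement, from a single period, which supplied only some of the PH livers. Surgery and period cannot be fully told apart there. At 4 h Tek stood at 0.890, 0.897 and 0.731 RPKM after PH and at 0.827, 0.698, 0.853, 0.608 and 0.825 after sham, against 1.55, 1.63 and 1.63 in C4. By the study's supplement C4 came from another period than the operated livers. Both surgeries were lower than C4 without overlap, PH (log2 -0.77, SE 0.22, adjusted p = 0.00212) and sham (log2 -0.88, SE 0.20, adjusted p = 0.000109). Relative to the pan-endothelial list these were 0.25 and -0.13, neither called.

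Against C0 (0.928 to 1.84 RPKM, median 1.36), Tek was lower in sham livers at 4 h (log2 -0.62, SE 0.15, adjusted p = 0.000278) and 10 h (log2 -0.89, SE 0.18, adjusted p = 3.5e-05). Both were smaller relative to the pan-endothelial reference, -0.28 (adjusted p = 0.0102), under the size limit, and -0.14 (adjusted p = 0.216), neither called. The lower level at 4 h after PH (log2 -0.51, SE 0.18, adjusted p = 0.0118) lost its call without C0 replicate 1, 7, 8 or 9 or PH replicate 6 (-0.49 to -0.44), and turned to 0.11 relative to the reference. At 1 week Tek held 1.81, 1.83 and 2.26 RPKM. It was higher than at 72 h (1.13, 1.19 and 1.18 RPKM, log2 0.64, SE 0.22, adjusted p = 0.0260), a call lost without 72 h replicate 1 or 3 or 1 week replicate 3 (0.55 to 0.65). It was also higher than C0 (log2 0.51, SE 0.18, adjusted p = 0.0222), a call lost without C0 replicate 3, 4, 5 or 6 or 1 week replicate 3 (0.42 to 0.49). Relative to the reference the 1 week differences were 0.19 (adjusted p = 0.219) from 72 h and 0.37 from C0, neither called.

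**Figure D5:**
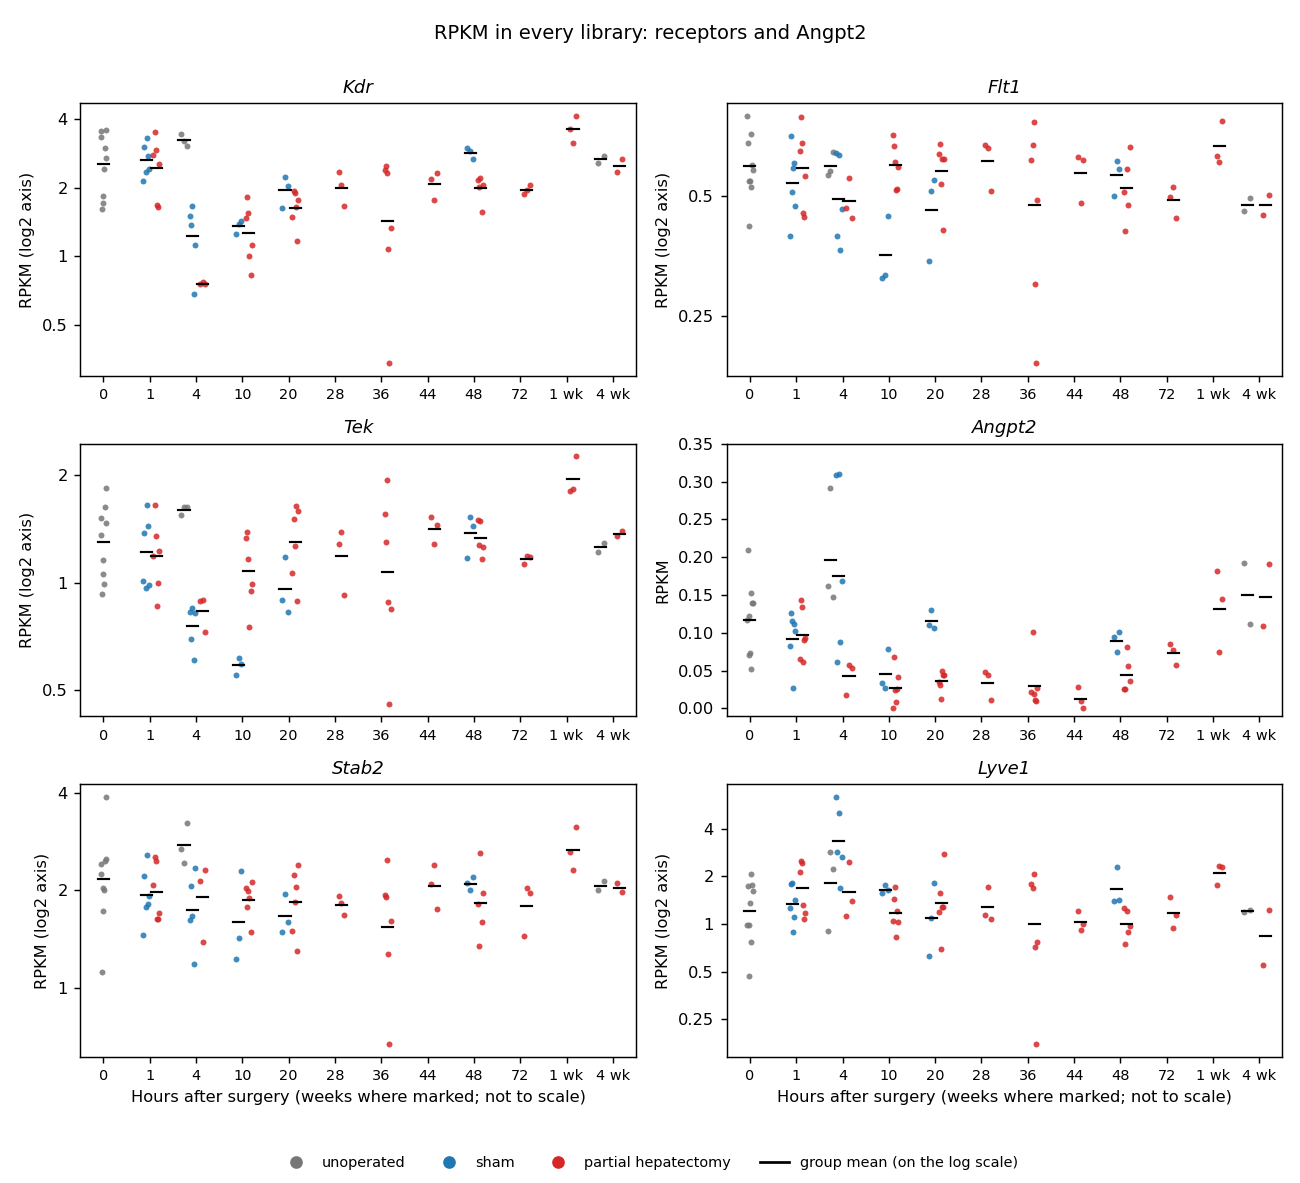
RPKM of Kdr, Flt1, Tek, Stab2 and Lyve1 (log2 axes) and of Angpt2 in every library, by time after surgery, with bars for the group mean. Kdr lies at 0.753 to 0.770 RPKM in PH livers at 4 h and at 3.05 to 3.44 in unoperated livers of that hour, and the lowest point of Kdr, Flt1, Tek, Stab2 and Lyve1 is replicate 5 of PH at 36 h.

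Stab2 (mm9 chr10:86303943-86470770, minus strand), the scavenger receptor of the sinusoid, had no call between PH and sham, with log2 fold changes from -0.18 to 0.20 over the 5 times. With all libraries at one median it was lower after PH at 48 h (log2 -0.61, SE 0.21, adjusted p = 0.0223). On that scale it was also called lower than C0 at 36, 44, 48 and 72 h after PH (-0.76, -0.52, -0.66 and -0.59) and after sham at 10 h (-0.59), and higher at 1 week than at 72 h (0.66). Its single call from RPKM as deposited was at 4 h after sham, with 1.62, 2.07, 1.66, 1.19 and 2.34 RPKM against 2.69, 2.44 and 3.23 in C4 (log2 -0.60, SE 0.23, adjusted p = 0.0186). Without C4 replicate 3 it was -0.50, without sham replicate 4 -0.49, and relative to the pan-endothelial list 0.14, none of them called. C4 came from another period than these sham livers, by the study's supplement. C0 livers spread from 1.12 to 3.90 RPKM (median 2.25), a range that held every other library except replicate 5 of PH at 36 h.

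Lyve1 (mm9 chr7:117994121-118006467, minus strand), the hyaluronan receptor, was highest in sham livers at 4 h, which held 6.35, 2.85, 5.03, 1.68 and 2.64 RPKM. C0 livers held 0.467 to 2.06 RPKM (median 1.35), and the groups overlapped in 1 sham liver. The difference was 2.46-fold (log2 1.30, SE 0.28, adjusted p = 6.2e-05), 1.98 within replicates 1 to 3 and 0.91 within replicates 4 to 6. PH livers at 4 h stood at 1.11, 2.47 and 1.40 RPKM and C4 at 0.899, 2.86 and 2.21. Neither PH against sham (log2 -0.98, SE 0.37, adjusted p = 0.0628) nor sham against C4 (log2 0.80, SE 0.37, adjusted p = 0.0550) was called. Relative to the pan-endothelial reference, sham (1.55, adjusted p = 5.55e-06) and PH (0.85, adjusted p = 0.0167) were both called higher than C4. PH against sham was -0.70 on that scale (adjusted p = 0.113), not called. The C4 livers, by the study's supplement, came from another period than the operated ones. The summed neutrophil list was 358 to 1218 RPKM in sham and 510.5 to 810.0 in PH livers at 4 h, against 1.90 to 5.08 in C4 and 2.30 to 95.5 in C0. Its part in the levels of Lyve1 and the other members was not tested. At 36 h Lyve1 was 1.79, 1.69 and 2.07 RPKM in PH replicates 1 to 3 and 0.713, 0.174 and 0.768 in replicates 4 to 6.

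Id1 (mm9 chr2:152561987-152563146, plus strand), the nuclear BMP target, showed the largest differences between PH and sham. At 4 h it stood at 15.8, 20.1 and 20.6 RPKM after PH and at 4.92, 1.93, 6.38, 7.71 and 4.77 after sham. All 3 PH livers were above all 5 sham livers, a 3.83-fold difference (log2 1.94, SE 0.43, adjusted p = 0.000871). Unoperated livers of that clock hour, C4, held 14.8, 20.2 and 7.22 RPKM. They came from a single period, which by the study's supplement held no operated liver. PH at 4 h did not differ detectably from C4 (log2 0.52, SE 0.48, adjusted p = 0.368), while sham was lower than C4 (log2 -1.41, SE 0.43, adjusted p = 0.00394). Without C4 replicate 2 that difference was -1.10 (adjusted p = 0.0553). These calls changed places relative to the pan-endothelial reference, with PH higher than C4 (1.54, adjusted p = 0.00201) and sham not called (-0.67, adjusted p = 0.145). Compared with C0 (1.18 to 6.83 RPKM, median 2.29), Id1 was higher in C4 (log2 2.04, SE 0.39, adjusted p = 0.000341) and at 4 h after PH (log2 2.56, SE 0.39, adjusted p = 1.06e-07).

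At 10 h PH livers held 5.45 to 9.95 RPKM of Id1 (median 8.57) and sham livers 1.69, 1.65 and 1.41. The groups did not overlap, and the difference was 4.61-fold (log2 2.20, SE 0.42, adjusted p = 0.000157). These sham livers came, by the study's supplement, from a single period, which supplied only some of the PH livers. At 20 h PH livers were at 2.26 to 4.21 RPKM (median 2.58) and sham livers at 1.06, 2.58 and 1.80, with overlap and no call (log2 0.69, SE 0.42, adjusted p = 0.289). Higher values returned at 28 h, with 6.65, 10.1 and 6.06 RPKM (log2 1.25, SE 0.39, adjusted p = 0.00801 against C0), a call lost without PH replicate 2 (1.03). At 36 h Id1 ranged from 4.41 to 32.9 RPKM (median 11.6) and was higher than C0 (log2 1.88, SE 0.31, adjusted p = 3.67e-07).

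At 48 h PH livers stood at 6.25, 5.17, 4.06, 3.53 and 11.8 RPKM of Id1 and sham livers at 1.30, 1.74 and 2.39, without overlap (2.91-fold, log2 1.54, SE 0.43, adjusted p = 0.00255). Against C0 the difference was 0.86 (adjusted p = 0.0197), and the call was lost without C0 replicate 1 (0.72) or PH replicate 5 (0.60), and at one median (0.39). At 1 week Id1 was low, at 2.23, 0.943 and 1.18 RPKM (log2 -1.0, SE 0.39, adjusted p = 0.0426 against C0). That call was lost without C0 replicate 3, 7, 8 or 9 or 1 week replicate 2 or 3 (-1.0 to -0.78).

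Against C0, which serves as the control of all these groups, the number of called members after PH was 1 of 9 at 1 h (13.5% of all genes), 3 at 4 h (38.2%), 2 at 10 h (36.4%), 2 at 20 h (24.1%) and 3 at 28 h (24.9%). It was 2 at 36 h (35%), 1 at 44 h (39.2%), 2 at 48 h (38.1%), 0 at 72 h (33.2%) and 3 at 1 week (16.9%). At 72 h limma gave 0 members with an unadjusted p under 0.05. With all libraries at one median 4 of 9 were called lower at 72 h, Vegfa (-0.72), Kdr (-0.68), Stab2 (-0.59) and Rspo3 (-0.55), where the median over all genes in RPKM as deposited was 0.21. After sham it was 1 at 1 h (7.77%), 5 at 4 h (34.4%), 3 at 10 h (29.1%), 1 at 20 h (12.1%) and 0 at 48 h (8.88%; 1 with an unadjusted p under 0.05). The median over all genes was itself between -0.20 and 0.24 in these comparisons. The calls after PH were 9 higher and 10 lower as deposited, 6 higher and 20 lower at one median and 18 higher and 4 lower relative to the pan-endothelial reference. Those after sham were 1 higher and 9 lower as deposited, 2 higher and 11 lower at one median and 5 higher and 1 lower relative to the reference. The 5 members called at 4 h after sham were Kdr (-0.92), Tek, Vegfa and Wnt2, lower, and Lyve1, higher.

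The unoperated ZT6 livers, C4, hold the clock hour constant. By the study's supplement no operated liver came from their period, so surgery and period cannot be told apart against them. Against C4, 6 of 9 members were called in sham livers at 4 h (43.3% of all genes) and 3 in PH livers (45.6%), all lower, where the median over all genes was -0.22 and -0.26. Vegfa, Kdr and Tek were called in both, and Id1, Rspo3 and Stab2 in sham livers. Rspo3 there (log2 -0.56, SE 0.18, adjusted p = 0.00701) was -0.49 without C4 replicate 1 and -0.49 without sham replicate 5, just under the size limit. Between C4 and C0 2 members were called (7.89%), Id1 and Vegfa. Between PH at 28 h and C4 2 were called (32.7%), Vegfa lower and Wnt2 higher (log2 0.79, SE 0.28, adjusted p = 0.0161). Over the 4 comparisons that involve C4 the calls were 3 higher and 10 lower as deposited, 4 higher and 8 lower at one median and 12 higher and 3 lower relative to the pan-endothelial reference. The Wnt2 call was lost without C4 replicate 2 (0.48) or PH replicate 2 (0.63).

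In the late steps 0 of 9 members were called between 72 h and 48 h (5.96% of all genes; 2 with an unadjusted p under 0.05 by limma) and 3 between 1 week and 72 h (16.3%). The latter were Wnt2, Kdr and Tek, all higher at 1 week. The pan-endothelial reference averaged 0.74 at 72 h and 1.19 at 1 week. Relative to it none of the 3 was called, and Id1 was called lower (-1.44, adjusted p = 0.00626). With all libraries at one median the calls of both steps were 5 higher and 0 lower, the other 2 being Vegfa from 48 h to 72 h (0.78) and Stab2 from 72 h to 1 week. After 4 weeks 0 of 9 members were called between PH and unoperated mice (0.065%), and 0 had an unadjusted p under 0.05, with 2 livers a group. Vegfa stood at 22.7 and 21.9 RPKM after PH and at 18.5 and 19.4 in unoperated mice, with Kdr at 2.34 and 2.67 RPKM after PH and at 2.57 and 2.75 in unoperated mice.

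Whether the difference between PH and sham itself changed with time was tested as a difference of the contrasts. From 10 h to 48 h it became smaller for Rspo3 (log2 -0.75, SE 0.25, adjusted p = 0.0201), Tek (log2 -0.71, SE 0.27, adjusted p = 0.0446) and Flt1 (log2 -0.56, SE 0.22, adjusted p = 0.0491), 3 of 9 members beside 23.1% of all genes. The Rspo3 call was lost without sham 10 h replicate 2 (-0.67) or sham 48 h replicate 1 (-0.73). The call was lost without any of 12 of the 17 libraries for Flt1 (-0.62 to -0.50) and 11 of 17 for Tek (-0.73 to -0.64). None of the 3 was called relative to the pan-endothelial reference (-0.41, -0.36 and -0.22). From 4 h to 10 h 0 of 9 members were called (3.73%), and 3 had an unadjusted p under 0.05 by limma.

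Other genes of these pathways were taken from lists grouped by function, and the values that follow are log2 fold changes between PH and sham. Of 6 further VEGF family genes tested, Nrp1, a co-receptor, was higher at 4 h (log2 0.93, SE 0.20, adjusted p = 0.000799) and Flt4, the lymphatic receptor, was lower (log2 -0.76, SE 0.20, adjusted p = 0.00615). Vegfb was lower at 20 h (log2 -1.05, SE 0.18, adjusted p = 6.23e-05) and Figf, which encodes VEGF-D, higher at 48 h (log2 0.55, SE 0.20, adjusted p = 0.0198). These were the 4 calls of the list over the 5 times. Of 2 angiopoietin and Tie genes tested, 0 were called, and 0 had an unadjusted p under 0.05 by limma at 4, 10, 20 and 48 h.

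The Wnt and R-spondin list had 8 tested genes, with 1 higher and 2 lower at 10 h, 3 higher and 0 lower at 20 h and 5 higher and 0 lower at 48 h. At 1 h and 4 h 0 were called, with an unadjusted p under 0.05 for 3 and 1 of them. Wnt9b, another endothelial Wnt ligand, was higher at 10 h (0.65), 20 h (0.79) and 48 h (0.74). Lgr5 and Lgr4, receptors for R-spondins, were lower at 10 h (-0.78 and -0.56), and Lgr5 was higher at 48 h (log2 0.92, SE 0.19, adjusted p = 8.71e-05). Axin2, a general Wnt target, was higher at 20 h (log2 0.84, SE 0.20, adjusted p = 0.00278) and 48 h (0.52). Znrf3, a negative regulator, was higher at 20 h (0.59), and its relative Rnf43 at 48 h (0.87). The list median at 48 h was 0.59, beside 0.27 for all genes.

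Of 16 BMP and Id genes, 1 higher and 1 lower were called at 4 h, 2 higher and 0 lower at 10 h, 1 higher and 0 lower at 20 h and 1 higher and 2 lower at 48 h. Bmp2, a ligand made by sinusoidal endothelium, was lower at 4 h (log2 -0.80, SE 0.21, adjusted p = 0.00580) and 48 h (-0.61). Gdf2, which encodes BMP9, was higher at 10 h (0.59), 20 h (0.86) and 48 h (0.55). Id3, a relative of Id1, was higher at 10 h (log2 1.27, SE 0.33, adjusted p = 0.00581), as Id1 was. Hamp, the hepatocyte hormone of iron balance and a BMP target, was lower at 48 h (log2 -1.65, SE 0.47, adjusted p = 0.00307), when Id1 was higher. Smad7, an inhibitor of the pathway, was higher at 4 h (0.71).

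Hypoxia genes moved both ways. Of 14 tested, 3 higher and 2 lower were called at 4 h, 3 higher and 0 lower at 10 h, 2 higher and 0 lower at 20 h and 3 higher and 2 lower at 48 h. Hif1a was higher at 4 h (log2 0.78, SE 0.14, adjusted p = 2.39e-05) and 10 h (0.55), and P4ha1, a collagen prolyl hydroxylase, was lower at 4 h (log2 -1.31, SE 0.24, adjusted p = 7.06e-05). Adm, a vasodilator peptide, was higher at 10 h (1.0) and 20 h (0.68). Of 9 sprouting and capillary genes, 0 higher and 2 lower were called at 4 h, 2 higher and 1 lower at 10 h, 1 higher and 0 lower at 20 h and 1 higher and 2 lower at 48 h. The tip cell marker Esm1 was lower at 4 h (log2 -1.24, SE 0.30, adjusted p = 0.00197) and 48 h (-1.03), and the Notch ligand Dll4 at 4, 10 and 48 h (-0.94, -0.58 and -0.55). Plvap, a protein of endothelial diaphragms, was higher at 10, 20 and 48 h (0.54, 0.88 and 0.99).

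Few genes of the endothelial marker lists were called between PH and sham. Of 10 pan-endothelial genes, 0 were called at 1, 4, 10 and 20 h (median 0.086, -0.29, 0.23 and 0.090; unadjusted p under 0.05 in 4, 2, 0 and 1 by limma), and at 48 h Robo4 was lower (-0.78; list median -0.080). Sinusoidal markers gave 1 higher and 1 lower of 10 at 4 h, 1 higher and 0 lower at 10 h and 1 higher and 1 lower at 48 h. Their median was -0.35 at 4 h and -0.33 at 48 h, with an unadjusted p under 0.05 by limma in 4 of 10 each time, where the medians over all genes were -0.045 and 0.27. The stellate list had 2 higher and 0 lower of 8 at 10 h, 4 higher and 0 lower at 20 h and 3 higher and 0 lower at 48 h, among them Hgf, the hepatocyte growth factor (0.91, 1.16 and 1.11), at times when Rspo3, Wnt2 or Id1 were also higher. After subtraction of the pan-endothelial reference, Wnt2 at 20 h kept its call (0.89), as did Id1 (2.21, 1.99 and 1.67 at 4, 10 and 48 h) and Rspo3 (0.91 and 0.93 at 10 and 20 h).

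The genes most like each member over the 19 group means, by Pearson r among 9071 candidates, were Dnase1l3 (0.914) for Kdr, Aqp1 (0.893) for Tek, Aqp1 (0.833) for Wnt2, Ppap2a (0.794) for Flt1 and Mndal (0.848) for Stab2. They were Rcn1 (0.830) for Rspo3, Ankrd16 (0.897) for Vegfa, Nufip1 (0.821) for Id1, Ppp1r15a (0.711) for Lyve1 and Bphl (0.874) for Angpt2. The third gene for Kdr was Ptprb (0.910), a phosphatase of endothelial cells, and the third for Flt1 was Pecam1 (0.777), an endothelial adhesion molecule. Among the members, r was 0.79 for Kdr and Tek, 0.77 for Tek and Stab2, 0.76 for Flt1 and Tek, 0.21 for Vegfa and Kdr and -0.47 for Id1 and Kdr. These values describe the same 19 groups, whose means share libraries, surgery and clock hour, and are not tests.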

How the data were processed

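Poly(A) RNA of single livers was sequenced, and the authors deposited log2 RPKM values per gene, in 1 table of the whole series. The submitters' processing notes name TopHat2 2.0.13, Bowtie2, SAMtools 0.1.19 and featureCounts, on mm9. Of 84 value columns, 80 matched a labelled sample in 19 groups, 4 matched none and were not used, and 7 of 87 labelled samples were not analysed here. Of all values 52.9% sat at the lowest value and were read as 0 RPKM. Depth was not given and was estimated from the steps between low values.

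RPKM was taken back from the log2 scale, and log2(RPKM + 0.25) was fitted in limma 3.58.1 (R 4.3.3) with 1 coefficient per group over all 80 libraries. Genes above a log2 RPKM of -1.5 in at least 1 library were tested (15396), with Benjamini-Hochberg adjustment over them within each comparison. Replicates are separate livers. Values of members were read in every library, and similar genes by Pearson r over group means, 3 per member. The members and lists were chosen with earlier results of these data known. The fit was tested on simulated data. Alternatives were the pseudocount, the filter, 2 scalings, a replicate block, the compared groups alone, and each library left out. Sets of replicate numbers were added after seeing the data.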

Additional observations from a re-analysis of the deposited data

Results flagged for a closer look

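In 80 sets of 1 gene in 1 group of 4 to 10 libraries, 2 held a library far from the others, where chance gives about 1 set in 20. Angpt2 in replicate 2 of PH at 36 h stood at 0.102 RPKM, and its gap to the nearest library was 0.7834 of the group's range. Kdr in replicate 4 of PH at 48 h stood at 1.56 RPKM, with a gap of 0.7314 of the range.

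The difference between PH and sham changed from 10 h to 48 h, by a test of that change in limma, for Rspo3 (-0.7543 on the log2 scale, adjusted p = 0.0201), Tek (-0.7061, adjusted p = 0.0446) and Flt1 (-0.561, adjusted p = 0.0491).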

How the results depend on the processing

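Over all libraries there were 7 calls of 45 between PH and sham, 19 of 90 between PH and C0, 10 of 45 between sham and C0, 13 of 36 in the ZT6 comparisons, 0 of 9 at 4 weeks, 3 of 18 in the late steps and 3 of 18 for the change of the PH effect, 55 in all. With a pseudocount of 1 RPKM the counts were 10 for PH against C0, 5 for sham against C0 and 1 for the change of the PH effect. Without the detection filter they were 1 in the late steps and 1 for the change of the PH effect. With all libraries at one median they were 13 between PH and sham, 5 in the late steps and 5 for the change, with 45 of the 55 calls kept. Relative to the pan-endothelial reference they were 6 for sham against C0, 1 in the late steps and 0 for the change, with 24 of the 55 calls kept. Comparing the groups alone gave 11 between PH and sham, 11 for PH against C0 and 6 for sham against C0. The cause of these shifts was not tested. A pseudocount of 0.05 RPKM kept 54 of the 55 calls and a stricter filter 54.

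With the replicate number as a replicate block there were 12 calls between PH and sham, and 12 with the block by sets of 3. Samples sharing a number share only that number in the labels, and in no comparison of 3 or more pairs did every pair of same-numbered libraries correlate above 0.1. Leaving out each library in turn gave 6 to 10 calls between PH and sham, 16 to 20 for PH against C0, 7 to 13 for sham against C0, 11 to 16 at ZT6, 0 to 0 at 4 weeks, 0 to 4 in the late steps and 0 to 3 for the change of the PH effect.

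Some directions turned. Relative to the pan-endothelial reference, Tek at 4 h after PH against C0 was 0.11, and at 10 h after sham against C0 Vegfa was 0.57 and Rspo3 0.060. On that scale PH at 4 h against C4 gave 0.68 for Wnt2, 0.97 for Rspo3, 0.82 for Flt1, 0.25 for Tek, 0.54 for Stab2 and 0.85 for Lyve1. Sham at 4 h against C4 gave 0.19 for Rspo3, 0.56 for Flt1 and 0.14 for Stab2. The sets of replicate numbers were added after seeing the data. Within replicates 1 to 3, Vegfa after PH against C0 was 0.58 at 20 h and 0.016 at 28 h, and Lyve1 at 36 h was 0.79. Within replicates 4 to 6, Vegfa at 4 h was -0.55 for PH against sham and 0.11 for sham against C0, and Wnt2 in the latter was 0.028. Against C0 replicates 1 to 3, Vegfa was 0.53, 0.50 and 0.016 at 10, 20 and 28 h after PH, and 0.14 and 0.11 at 1 h and 4 h after sham. Depth limits Angpt2 most, at a median of 6.99 estimated reads.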

Other observations

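Proliferation genes were read at the times when endothelial members were called. At 10 h, when Id1, Rspo3 and Tek were higher after PH than sham, 0 of 5 proliferation genes were called, with 0 at an unadjusted p under 0.05 by limma. At 20 h 3 of 5 were higher, among them Cdk1, a mitotic kinase (log2 0.86, SE 0.27, adjusted p = 0.0241), and at 48 h all 5 were higher, with Mki67, a marker of cycling cells, at 5.25 (SE 0.29). Thbs1, which encodes an inhibitor of angiogenesis, was higher at 48 h (log2 1.55, SE 0.46, adjusted p = 0.00430), the single call of 5 anti-angiogenic genes at that time.

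Among sinusoidal markers Oit3 was lower after PH than sham at 4 h (-0.89) and 48 h (-0.74), Ehd3 was higher at 4 h (0.64) and 10 h (0.78), and Gata4, a transcription factor of sinusoidal identity, was higher at 48 h (0.69). Against unoperated livers of the same clock hour, 8 of 10 sinusoidal markers were lower at 4 h after PH and 6 of 10 after sham. Those unoperated livers, by the study's supplement, came from another period than the operated ones. Of all genes 45.6% and 43.3% were called either way. The stellate list was lower in 7 of 8 genes after each surgery, with 1 higher after PH and 0 after sham.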
